A study of Drosophila melanogaster with 8 samples.

Results

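The 71 genes described here are the mitochondrial ribosomal protein genes of Drosophila melanogaster, chosen as all genes whose name begins mRpL (45 genes, large subunit) or mRpS (26 genes, small subunit), of 15146 genes in each of a pair of tables. RNA came from the strain w1118. One table holds whole embryos at stage 17 whose fathers ate food with 300 g/L sugar (high) or 30 g/L sugar (medium). The other holds spermatozoa of adult males fed 300 g/L or 30 g/L sugar. Each of the 4 groups has 2 libraries, 8 in all, made from total RNA after removal of ribosomal RNA. Values are FPKM, a count of sequenced fragments corrected for transcript length and for the number of fragments in the library, and the authors give 1 per gene and group. No spread between libraries can therefore be set beside a value, the depth is unknown, and whether a gene differed rests on the authors' own test. Ratios are high over medium sugar, and a gene is called where the authors tested it and their adjusted p was under 0.05.

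Mitochondria make a small set of respiratory chain proteins on ribosomes of their own. The RNAs of these ribosomes are transcribed from mitochondrial DNA, while all their proteins are encoded in the nucleus, made in the cytosol and imported. In Drosophila, a mutation in tko, a gene of a small subunit protein with another kind of name, causes slow development and seizures on mechanical shock. Mitochondria of spermatids fuse into a large body, the nebenkern, that extends along the growing tail.

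Each table held markers of its tissue, and the sperm table also held markers of other tissues. Of 25 spermatid genes, 25 averaged 1 FPKM or more over both groups in sperm and 4 in embryos. Of 10 cuticle genes of late embryos, 4 did so in sperm and 10 in embryos. The cuticle gene Cpr51A had 65.4 FPKM in high sugar sperm and 74.2 in medium sugar sperm. Of 14 muscle genes, the same 10 averaged 1 FPKM or more in each tissue. The list summed to 3264 and 3391 FPKM in high and medium sugar sperm. In embryos of high and medium sugar fathers it summed to 7218 and 6502 FPKM. The rest of this list averaged under 1 FPKM in both tissues. In sperm, Act88F had 1.24 FPKM in high sugar and 0.669 in medium sugar. TpnC4 was at 0 in both sperm groups, and Act79B and fln were at 0 in medium sugar sperm. Which cells the RNA of the muscle genes in sperm came from was not tested. The spermatid list summed to 2115 FPKM in high sugar sperm and 934 in medium sugar sperm, with none at 0 and a median log2 ratio of 1.02. The 13 genes of the accessory gland and ejaculatory duct summed to 1260 and 660 FPKM in the same order of groups, with PebII at 0 in medium sugar. Dup99B alone had 778 FPKM in high sugar sperm and 254 in medium sugar sperm. Of the 12 genes averaging 1 FPKM or more, 9 had a log2 ratio above 0 and 3 below it. Among those below was PebIII, with 207 FPKM in high sugar and 248 in medium sugar. The 7 fat body genes summed to 139 FPKM in high sugar sperm and 439 in medium sugar sperm, with Fbp2 at 0 in both groups and Yp1 and Yp2 at 0 in medium sugar. Of these, Tsf1 had 107 FPKM in high sugar and 429 in medium sugar and was called lower, with an adjusted p of 0.0075 given by the authors' deposited table. Cyp4g1 had 29.9 FPKM in high sugar and 8.29 in medium sugar. In embryos the cuticle list summed to 2012 FPKM with high sugar fathers and 874 with medium sugar fathers, with none at 0. Its median log2 ratio was 1.67, and 7 of 10 genes were called higher, against 72 of 10163 tested genes. The list was chosen with earlier results of these data known, so this count is no independent result. The part of these shifts in the values below was not tested. How much of the RNA of the members in the sperm table came from other cells was not tested either. In bulk RNA, fewer cells of a type and less RNA per cell cannot be told apart.

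In embryos the levels of the mitochondrial ribosomal protein genes lay close between the 2 groups. Their median was 49.2 FPKM with high sugar fathers and 50.5 FPKM with medium sugar fathers, and they ranged over 17.1 to 140.0 and 17.3 to 135 FPKM. Their sum was 3967 FPKM in high sugar and 3948 FPKM in medium sugar. That was 0.339% and 0.377% of the FPKM of all genes. The ratio of high over medium sugar was 1.005 for the sum of the members and 1.12 for the sum of all genes. The lower share in high sugar thus comes from the larger total. The mean level spanned 8.0-fold between members. Across the 71 members the log2 levels (of FPKM plus 0.1) in the 2 groups had a Pearson r of 0.983. This describes values that share the length and composition of each gene.

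Members were ordered by their mean over both groups. The highest embryo level was that of mRpS5, the counterpart of a bacterial protein at the entry of the mRNA channel, with 140.0 FPKM in high sugar and 135 FPKM in medium sugar. The large subunit genes mRpL33, mRpL34 and mRpL23 were also among the 5 highest. mRpL33 had 131 FPKM in high sugar and 105 in medium sugar, mRpL34 had 116 and 113, and mRpL23 had 99.6 and 96.05. mRpS11, of the small subunit platform, completed these with 99.5 FPKM in high sugar and 96.9 in medium sugar. The order near them differed by group, with mRpL55 at 99.7 FPKM above mRpL23 and mRpS11 in high sugar, and mRpS21 at 100.4 FPKM above both in medium sugar. The lowest were all large subunit genes. mRpL38 had 17.1 FPKM in high sugar and 17.3 in medium sugar, and mRpL16 had 17.9 and 18.7. mRpL48 had 18.6 FPKM in high sugar and 18.2 in medium sugar, mRpL2 had 19.9 and 18.5, and mRpL46 had 24.1 in both groups. Within single groups these 5 lowest genes ranked from 66 to 71 of 71, though they were picked by the mean of the same values.

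**Figure D1:**
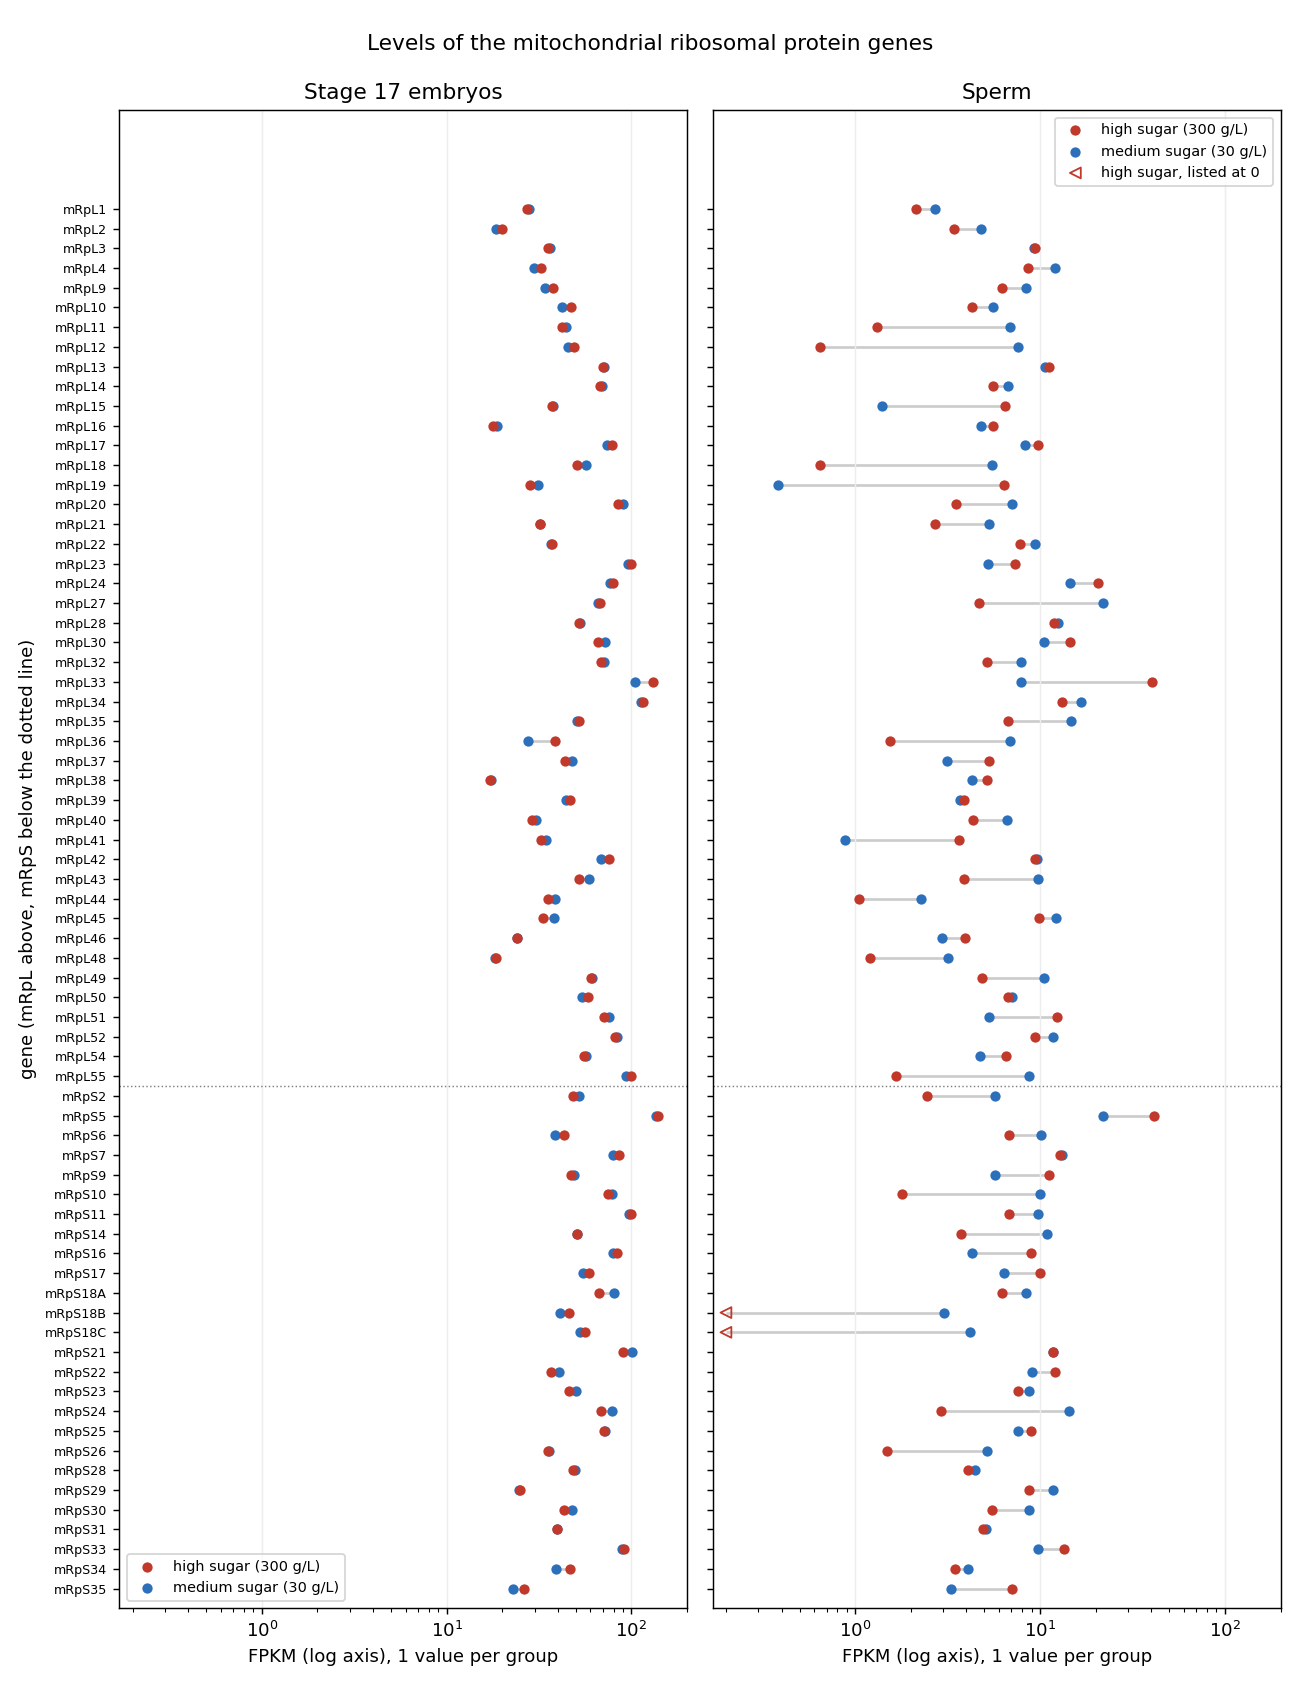
FPKM (log axis) of each of the 71 genes in stage 17 embryos (left) and sperm (right), with a red point for high sugar and a blue point for medium sugar, 1 value per group, joined by a grey line. Embryo points nearly coincide between 17.1 and 140.0 FPKM, while sperm points are lower and further apart, with mRpS18B and mRpS18C listed at 0 in high sugar (open triangles).

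No member was called in embryos. The authors tested all 71, and 0 passed, by Cuffdiff 2.1.1 as the submitters' processing notes name it, while 82 of 10163 tested genes did (0.807%). Recomputed adjustment also called 0 members. At an unadjusted p under 0.05 the count was 0 members, against 339 genes (3.34%). In the authors' deposited table the unadjusted p of members ran from 0.149 to 0.990, and the adjusted p was 0.999 for each. Among the 2793 genes within the members' range of mean level, 2779 were tested and 24 called (0.864%), the smallest called fold being 2.08.

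The embryo ratios lay between 0.828 and 1.40. The median log2 ratio was -0.0072, with quartiles of -0.07 and 0.08, and 39 of 71 members were below 0 (54.9%, against 56.9% of all genes at 1 FPKM or more). This median changed sign, to 0.03, after subtraction of the median ratio of all genes with at least 10 FPKM, -0.04. Within 0.25 of 0 were 68 of 71 members, or 95.8%, against 69.3% of all genes at 1 FPKM or more and 81.5% of genes in the members' range of level. A high share was not particular to the members. It was 95.2% for cytosolic ribosomal proteins, 92.9% for mitochondrial aminoacyl-tRNA synthetases and 90.9% for mitochondrial translation factors. For nuclear oxidative phosphorylation it was 85.7%, and for mitochondrial transcription and RNA maturation 71.4%. No member had a log2 ratio of 1 or more or of -1 or less, against 290 (2.92%) and 116 (1.17%) of 9940 genes.

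The largest embryo ratio was that of mRpL36, a short zinc-binding protein in bacteria, with 38.8 FPKM in high sugar and 27.7 FPKM in medium sugar, a ratio of 1.40 (p = 0.149 in the authors' deposited table). Next came mRpL33, with 131 and 105 FPKM in high and medium sugar and a ratio of 1.25 (p = 0.286 in the authors' deposited table). mRpS34 had 46.6 FPKM in high sugar and 39.2 in medium sugar. On the log2 scale mRpL36, mRpL33 and mRpS18A were the 3 members beyond 0.25 in either direction. mRpS35 had 26.3 FPKM in high sugar and 23.0 in medium sugar, and mRpL10 had 47.2 and 41.9. At the other end mRpS18A had 66.5 FPKM in high sugar and 80.3 FPKM in medium sugar, a ratio of 0.828 (p = 0.317 in the authors' deposited table). mRpS18A is 1 of 3 genes related to bacterial S18. mRpL45 had 33.1 FPKM in high sugar and 38.2 in medium sugar, mRpS24 had 68.4 and 78.6, mRpL43 had 52.2 and 59.0, and mRpS21 had 89.7 and 100.4. These differences did not pass the authors' test.

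**Figure D2:**
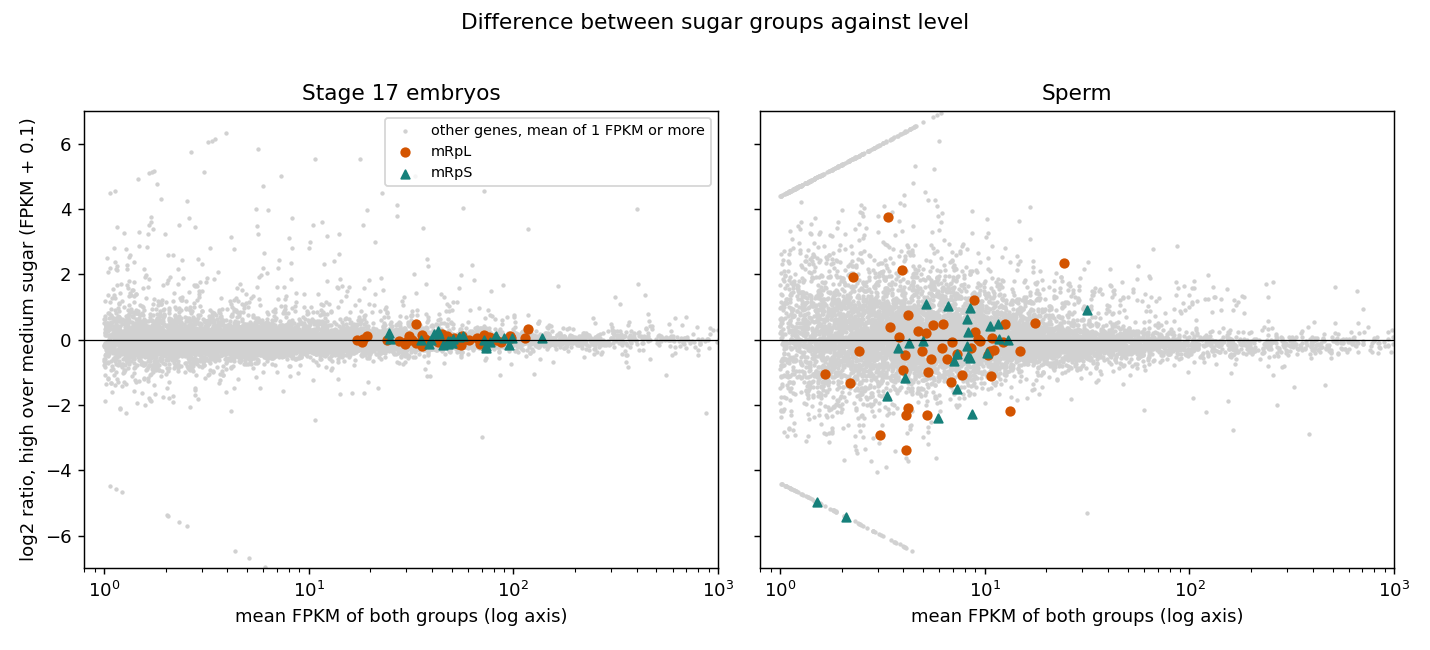
Log2 ratio of high over medium sugar (FPKM plus 0.1) against the mean FPKM of both groups (log axis), with mRpL as orange circles, mRpS as green triangles and other genes at 1 FPKM or more in grey. In embryos (left) 68 of 71 members lie within 0.25 of 0, and in sperm (right) 25 lie at 1 or beyond in either direction.

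In sperm the same genes were listed at lower levels and differed more between the groups, again with none called. Their median was 6.2 FPKM in high sugar and 7.60 FPKM in medium sugar, with ranges of 0 to 41.2 and 0.381 to 22 FPKM. Their sum was 519 FPKM in high sugar and 560 FPKM in medium sugar, a ratio of 0.928. The members took 0.0602% and 0.0665% of the FPKM of all genes in these groups. Across members the log2 levels in both groups had a Pearson r of 0.363 (n = 71).

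The authors tested 61 members in sperm and called 0, against 22 of 6453 tested genes (0.341%). Recomputed adjustment called 0 members. At an unadjusted p under 0.05 the count was also 0, by Cuffdiff 2.1.1, against 255 genes (3.95%). In the authors' deposited table the unadjusted p ran from 0.0796 to 0.979, and the adjusted p was 0.996 for each tested member. The 10 members not tested had means of 1.51 to 3.79 FPKM. Of the 7220 genes within the members' range of level, 5038 were tested (69.8%) and 9 called (0.179%), the smallest called fold being 2.73.

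The median sperm log2 ratio was -0.27, with quartiles of -1.02 and 0.33, against -0.03, -0.35 and 0.46 for all genes at 1 FPKM or more. Below 0 were 45 of 71 members (63.4%), against 52.4% of those genes. Log2 ratios of -1 or less were found for 18 members (25.4%), against 703 of 9251 genes (7.6%). Ratios of 1 or more were found for 7 members (9.86%), against 1270 genes (13.7%). Of these 25 members, 19 had been tested, and their p ran from 0.0796 to 0.628 in the authors' deposited table. Among the 33 members with a locus of their own, 8 were at -1 or less and 3 at 1 or more. By coding length in BDGP6, 10 of the 23 shortest members and 10 of the 23 of middle length were at 1 or beyond. Of the 22 longest, 5 were. The part of length in these counts was not tested. Of mitochondrial aminoacyl-tRNA synthetases, 50% were at 1 or beyond, against 35.2% of members. This share was 22.2% for mitochondrial translation factors, 9.76% for nuclear oxidative phosphorylation, 4.76% for cytosolic ribosomal proteins and 0% for transcription and RNA maturation.

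The spread went with the level. The 24 members of lowest mean, 1.51 to 5.0 FPKM, held 13 of the 25 and all 10 untested members, with a median log2 ratio of -0.42. The 24 of middle level, up to 8.47 FPKM, held 7, with a median of -0.43. The 23 highest, 8.57 to 31.6 FPKM, held 5, with a median of -0.02. With a minimum mean of 5 FPKM the median of the members was -0.14.

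Members lower in high sugar sperm included mRpL12, the protein of the flexible stalk that binds translation factors in bacteria, with 0.643 FPKM in high sugar and 7.60 FPKM in medium sugar (ratio 0.0847, p = 0.144 in the authors' deposited table). mRpS10, of the head of the small subunit, had 1.79 FPKM in high sugar and 9.98 in medium sugar (ratio 0.179, p = 0.117 in the authors' deposited table). The smallest p of any member was that of mRpL27, which in bacteria reaches into the peptidyl transferase centre, with 4.70 FPKM in high sugar and 21.8 in medium sugar (p = 0.0796 in the authors' deposited table). None of these passed adjustment, and the ratios of mRpL12 and mRpS10 rest on low high sugar values. mRpL18 had 0.644 FPKM in high sugar and 5.53 in medium sugar and was not tested. mRpS18B was listed at 0 in high sugar and 3.02 FPKM in medium sugar, and mRpS18C at 0 and 4.20, both untested. These were the members listed at 0 in any group.

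Members higher in high sugar sperm included mRpL19, with 6.35 FPKM in high sugar and 0.381 FPKM in medium sugar (ratio 16.7, p = 0.203 in the authors' deposited table). mRpL33 had 40.6 FPKM in high sugar and 7.91 in medium sugar (ratio 5.13, p = 0.165 in the authors' deposited table). mRpL15 had 6.46 FPKM in high sugar and 1.40 in medium sugar (p = 0.407 in the authors' deposited table). The ratios of mRpL19 and mRpL15 rest on low medium sugar values. mRpL41 had 3.64 FPKM in high sugar and 0.882 in medium sugar and was not tested. mRpL51 had 12.4 FPKM in high sugar and 5.29 in medium sugar.

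By the mean over both groups, the highest sperm levels were again led by mRpS5, with 41.2 FPKM in high sugar and 22 FPKM in medium sugar (p = 0.210 in the authors' deposited table). After it and mRpL33 came mRpL24, at the rim of the tunnel through which the new protein leaves, with 20.7 FPKM in high sugar and 14.6 in medium sugar. mRpL34 had 13.1 FPKM in high sugar and 16.7 in medium sugar. The fifth was mRpL27. Within single groups, mRpL33 ranked 2 of 71 in high sugar and 33 in medium sugar, and mRpL34 ranked 6 and 3, so the place of mRpL33 rests on its high sugar value. Among the lowest were mRpL44, with 1.04 FPKM in high sugar and 2.28 in medium sugar, and mRpL48, with 1.20 and 3.18, besides mRpS18B, mRpS18C and mRpL41.

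The ratios of the members were also set side by side between the tissues. The 25 members at 1 or beyond in sperm had embryo log2 ratios of -0.20 to 0.48, and 12 of them had the same sign in both tissues. Over all members, 33 had the same sign and 38 opposite signs. mRpL36, the largest ratio in embryos, had 1.54 FPKM in high sugar sperm and 6.86 FPKM in medium sugar sperm. mRpL33 was higher in high sugar in both tissues.

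By place in the ribosome, known from bacterial and mammalian structures, the embryo medians stayed near 0 in each group of proteins. For the core of the large subunit around the peptidyl transferase centre (mRpL2, mRpL3, mRpL4, mRpL16 and mRpL27) the median log2 ratio was 0.04 in embryos and -0.47 in sperm. For its stalks (mRpL1, mRpL10, mRpL11 and mRpL12) it was 0.04 and -1.34, with 4 of 4 below 0 in sperm. mRpL11 had 1.31 FPKM in high sugar sperm and 6.92 in medium sugar sperm, mRpL10 had 4.30 and 5.54, and mRpL1 had 2.13 and 2.71. For the rim of the exit tunnel (mRpL17, mRpL22, mRpL23, mRpL24 and mRpL45) the median was 0.05 in embryos and 0.23 in sperm. For the small subunit, the head proteins mRpS7, mRpS9, mRpS10 and mRpS14 had medians of -0.02 in embryos and -0.77 in sperm. The platform proteins mRpS6, mRpS11, mRpS18C and mRpS21 had 0.06 and -0.54. These groups were drawn up after the values were seen, hold few genes each and describe only these values. In mammals the counterparts of mRpS18A and mRpS30 sit in the large subunit, so the split by name is not fully one by subunit. By name, mRpL genes had medians of -0.02 in embryos and -0.31 in sperm, and mRpS genes 0.01 and -0.22.

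The 42 members numbered like bacterial ribosomal proteins (L up to 36, S up to 21) had median log2 ratios of 0.03 in embryos and -0.35 in sperm. The 29 with higher numbers, mostly proteins that mitochondrial ribosomes gained, had -0.02 and -0.12. Coding length in BDGP6 was known for 68 members, from 192 to 1671 bases. Across these members the log2 of coding length had a Pearson r with log2 mean FPKM of -0.641 in embryos and -0.286 in sperm. Since FPKM divides by length, these are descriptions only.

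The tables may have been scaled separately, so sperm and embryo levels were set side by side without a test. Each of the 71 members had a lower percentile in sperm than in embryos when genes were ranked by mean FPKM within their table. The median percentile was 68.1 in sperm (42.9 to 90.6) and 90.5 in embryos (77.6 to 96.1), and the median gap was -21.4 points. In sperm, 6 members ranked under percentile 50. Related lists also had lower median percentiles in sperm than in embryos. They were 52.3 and 71.7 for mitochondrial translation factors, 52.5 and 64.5 for the synthetases, and 50.4 and 67.4 for mitochondrial transcription and RNA maturation. The medians lay closer for nuclear oxidative phosphorylation (92.3 and 95.5) and cytosolic ribosomal proteins (98.9 and 99.3). Near the top of a table, however, percentiles leave little room to differ. In high sugar, oxidative phosphorylation genes had a median of 37.9 FPKM in sperm and 123 in embryos. Cytosolic ribosomal proteins had 377 and 1828, and the members 6.2 and 49.2, in the same order. Among members, the largest percentile gaps were those of mRpS18B (-46.3), mRpS18C (-44.0), mRpL44 (-43.4), mRpL41 (-38.3) and mRpL18 (-38.1). The smallest gaps were those of mRpS5 (-5.45), mRpS29 (-6.95), mRpL33 (-7.37), mRpL24 (-9.34) and mRpL4 (-9.68). mRpS29, which has a GTP-binding protein of apoptosis as its human counterpart, had 8.76 FPKM in high sugar sperm and 11.8 in medium sugar sperm. In embryos it had 25 FPKM with high sugar fathers and 24.7 with medium sugar fathers. mRpL4 had 8.65 FPKM in high sugar sperm and 12.0 in medium sugar sperm, with 32.4 and 29.7 in embryos of high and medium sugar fathers. The order of members was partly shared, with a Spearman rho of 0.545 between the mean FPKM of sperm and of embryos (n = 71). On the log2 scale their Pearson r was 0.559.

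**Figure D3:**
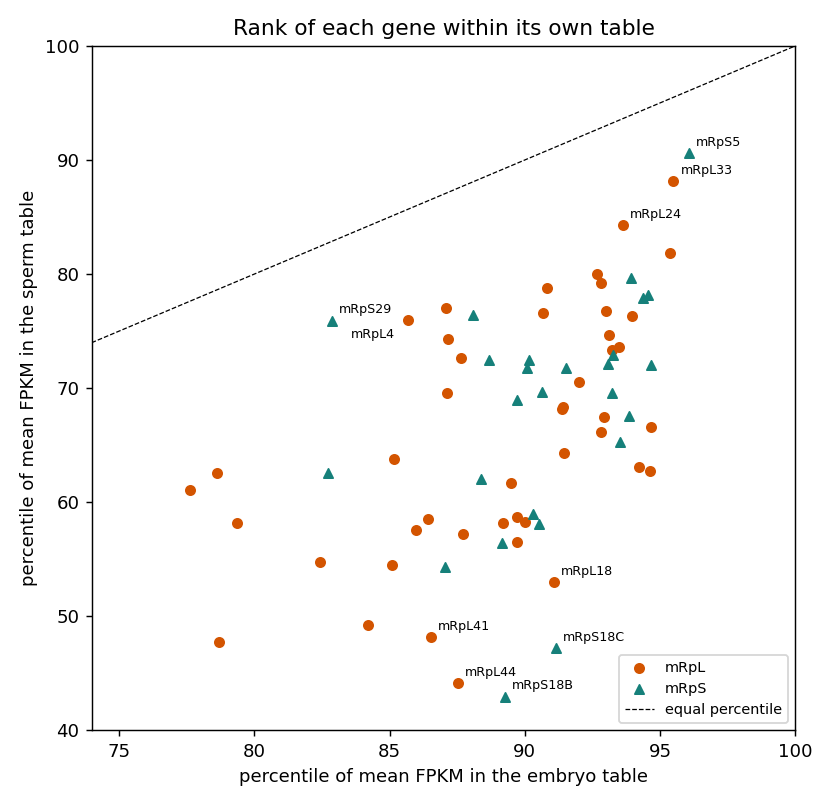
Percentile of mean FPKM within the sperm table (vertical) against that within the embryo table (horizontal) for the 71 genes, mRpL as orange circles and mRpS as green triangles, the dashed line marking equal percentiles. Every gene lies below the line, from mRpS5 with a gap of -5.45 points to mRpS18B with -46.3.

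The genes lie scattered over the genome, with 12 on chromosome arm 2L, 11 on 2R, 17 on 3L, 20 on 3R and 11 on X. Of the 71 identifiers, 68 occur in the BDGP6 annotation, all 68 with the same symbol. mRpS5 lies at 3L:24530335-24536634, mRpL33 at X:4215797-4216234, mRpL12 at 3L:8949892-8950684 and mRpL27 at 2L:4458980-4459602 (BDGP5), each as the only gene of its locus in the tables. Neighbouring members within 50 kb were mRpL3 and mRpS30 on X, 23389 bases apart, and mRpL24 and mRpL28 on 2L, 28634 bases apart.

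In all, 38 members share their locus with another gene, so their values are less certain. Of the 41 genes that share these loci, 0 were called in either tissue. At 1 FPKM or more, 15 of 39 such genes in embryos and 19 of 37 in sperm had the sign of the member. mRpL18 shares its locus with ox, a subunit of respiratory complex III, which had 26.7 FPKM in high sugar sperm and 67.9 FPKM in medium sugar sperm, and with Taz. mRpS18B shares its locus with Kua, mRpL15 with Psn and mRpL4 with CG4278. Over members with a locus of their own the sperm median was -0.31.

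Mitochondrial ribosomal proteins with other names were read beside these genes. tko had 65.2 FPKM in embryos of high sugar fathers and 58.3 FPKM in embryos of medium sugar fathers, and 6.79 and 4.36 in high and medium sugar sperm. bonsai, the counterpart of bacterial S15, had 61.7 and 63.7 FPKM in embryos of high and medium sugar fathers. In sperm it had 2.26 FPKM in high sugar and 3.12 in medium sugar, and 6 of 71 members had a lower mean. Of the mitochondrial ribosomal RNAs, which ribosomal RNA depletion may also remove, mt:lrRNA had 115538 FPKM in embryos of high sugar fathers and 110671 in embryos of medium sugar fathers. In sperm it had 44713 FPKM in high sugar and 47242 in medium sugar. mt:srRNA had 2387 and 1525 FPKM in embryos of high and medium sugar fathers, and 842 and 641 in high and medium sugar sperm.

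The lists of mitochondrial translation factors, aminoacyl-tRNA synthetases, and transcription and RNA maturation genes held 0 genes called by Cuffdiff 2.1.1 in either tissue. The authors tested 39 of these 39 genes in embryos and 13 in sperm, so most could not be called there. At an unadjusted p under 0.05 they held 0 in embryos and 1 in sperm, while shares over all tested genes were 3.34% and 3.95%. The 11 translation factors had a median log2 ratio of 0.04 in embryos, and the 9 of them at 1 FPKM or more in sperm had -0.003, against 0.18 over all 11. The 14 mitochondrial aminoacyl-tRNA synthetases, which charge tRNAs with amino acids, had medians of -0.07 in embryos, with 13 of 14 below 0, and 0.13 in sperm. Among them CG7441, named TrpRS-m in BDGP6, had 28.3 FPKM in high sugar sperm and 14.0 FPKM in medium sugar sperm (p = 0.0147, adjusted p = 0.689 in the authors' deposited table). Genes of mitochondrial transcription and RNA maturation had medians of -0.06 over 14 genes in embryos and 0.50 over the 11 at 1 FPKM or more in sperm. Over all 14 in sperm the median was 0.34, with mtSSB listed at 0 in high sugar and 1.63 FPKM in medium sugar. The sperm medians of these lists therefore lay above the -0.27 of the ribosomal proteins, which was not tested.

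Messenger RNAs of the mitochondrial genome had medians of 0.15 in embryos and -0.10 in sperm. Nuclear genes of oxidative phosphorylation, whose products join those made on mitochondrial ribosomes, had 0.08 and 0.04. Cytosolic ribosomal proteins had -0.006 and -0.06. The median FPKM of the mitochondrial ribosomal protein genes was 39.99% of that of the oxidative phosphorylation genes in embryos of high sugar fathers and 44.2% in embryos of medium sugar fathers. In sperm it was 16.4% in high sugar and 20.5% in medium sugar. Against cytosolic ribosomal proteins it was 2.69% and 2.76% in embryos, and 1.64% and 1.89% in sperm, of high and medium sugar. These percentages use all genes of a list at any level. Of the 85 oxidative phosphorylation genes, 70 averaged 1 FPKM or more in embryos and 82 in sperm, so their median is lowered more in embryos.

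**Figure D4:**
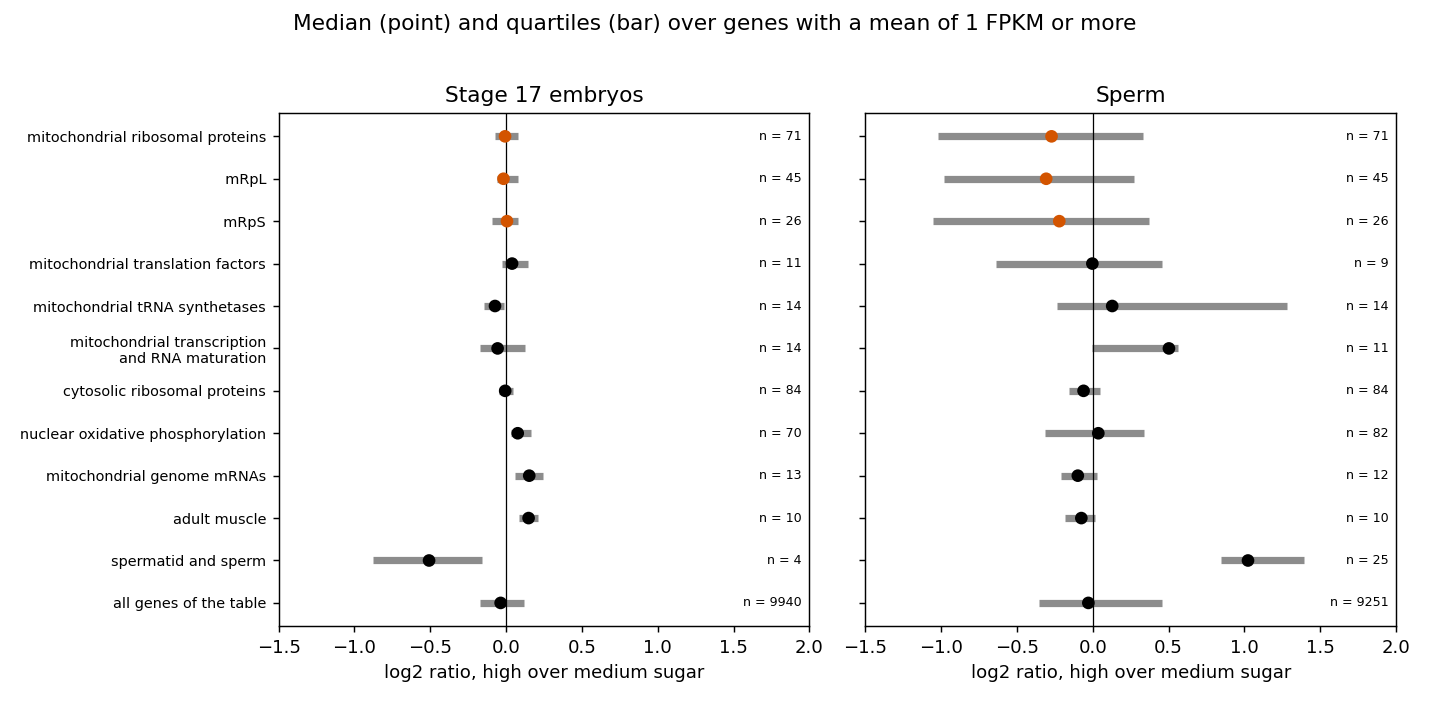
Median (point) and quartiles (bar) of the log2 ratio of high over medium sugar over genes with a mean of 1 FPKM or more, in embryos (left) and sperm (right), with the number of genes at the right of each row. The 71 mitochondrial ribosomal protein genes have a median of -0.0072 in embryos and -0.27 in sperm, where the spermatid list has 1.02.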

How the data were processed

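Per the labels' protocols, total RNA of 8 libraries was purified with Trizol, ribosomal RNA was removed, and stranded libraries were prepared. The submitters' processing notes name the BDGP5 build, Cuffdiff 2.1.1 and TopHat2 2.0.8. Which annotation and options were used is not stated in the labels or headers. Per the file headers, the deposited values are FPKM, 1 per gene and group, so depth and the spread between libraries are unknown. The deposited p-value and adjusted p-value are the authors' own test. Both tables have the same headers, and the tissue of a table is known from its name. Unused columns of values per sample numbered 0.

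Genes were called where the authors tested them and the deposited adjusted p was under 0.05. Log2 ratios were computed from FPKM plus 0.1, which understates changes of low genes, and the deposited fold change column, which holds spreadsheet errors in the embryo table, was not used. Benjamini-Hochberg adjustment was also recomputed over the 10163 embryo and 6453 sperm genes tested. It kept 82 of 82 embryo calls and 16 of 22 sperm calls, since the deposited sperm values are smaller than those recomputed. The calculations were tested on simulated data.

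Loci carry the BDGP5 build with 1 added to the deposited start. Of 8936 genes with a locus of their own and a length in BDGP6, 2123 had the BDGP6 length if starts count from 0, and 153 if they count from 1. The labels do not state whether replicate libraries are from separate crosses, and the authors' p-values may measure a technical spread.

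Members and lists were chosen with earlier results of these data known, and the structural groups were drawn up from textbook roles after the values were seen. By rule, the text names members with the 5 largest and 5 smallest ratios, the 5 highest and 5 lowest levels, the 5 largest and 5 smallest rank gaps, those listed at 0, tko and bonsai. The 38 members that share a locus are counted and only partly given with values, which departs from the rule. Members named for a structural group or as neighbours, mRpL55, TrpRS-m and mtSSB were otherwise chosen after their values were seen. So were the marker genes named and the genes named as sharing a locus. mRpL27 is named by rule for its sperm level, while its p was picked out after the values were seen. Symbols Acp33A, mEFG2, mTaSe, HisRS-m, PheRS-m and mtTFB1 of the lists were not matched. Promoter and protein sequences were not analysed here. Alternatives were other thresholds, pseudocounts, minimum levels, centring, and leaving out shared loci. Python 3.11.15, pandas 2.3.3 and matplotlib 3.10.9 were used.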

Additional observations from a re-analysis of the deposited data

How the results depend on the processing

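Of 36 alternative values, 33 kept their call or direction. They moved a median by less than 0.1 (log2) or a share by less than 10 percentage points. Part of these 33 could not have changed, so the count overstates how far the results were tried. From 0 calls, a stricter adjusted p or an added minimum can only give 0. A minimum mean of 0.1 FPKM, or of 5 FPKM in embryos, left out no member. A pseudocount cannot change the sign of a ratio, so it cannot change the share below 0. Subtracting the median ratio of all genes with at least 10 FPKM turned the embryo median to 0.0297, against -0.0072 uncentred. It also took the share of members below 0 in embryos to 35.2%, against 54.9%. In sperm, a minimum mean of 5 FPKM gave a median of -0.14, against -0.27. The count of called members was 0 in both tissues under every threshold tried. The alternatives restricted to tested members or to members listed at 0 in no group, and the medians of other lists with no minimum level, were chosen after seeing the data. No paired analysis was possible because each group has 1 combined value, and for that reason no replicate could be left out.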
